A study of Mus musculus with 2 samples.

Results

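Genes for histone deacetylases (Hdac1, Hdac2, Hdac7), Polycomb group proteins (Eed, Ezh1), enzymes of histone methylation (Kdm6b, Kmt2a), the maintenance DNA methyltransferase (Dnmt1) and cohesin (Smc1a, Smc3) each had a TCF7 peak in a transgenic mouse T-cell lymphoma line. These 10 genes were selected on the peak list itself. A peak was taken for 9 of them because the authors' table of nearest genes assigned it to the gene, and for Ezh1 because the summit lay 812 bp from one of its transcription start sites (TSS), inside the limit of 1000 bp set for this gene, although the table assigns that peak to Ccr10, a chemokine receptor gene. The 10 peaks were 10 of 779 in the list. Having a peak is therefore how the genes were chosen and is no finding about them.

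The study asked which genes β-catenin and its DNA-binding partner TCF7 occupy in lymphoma cells of mice that carry both a Dlx5 and an activated (myristoylated) Akt2 transgene. ChIP-seq, in which DNA crosslinked to a protein is pulled down with an antibody and sequenced, gave 1 TCF7 ChIP library, made with a rabbit monoclonal antibody to TCF1/TCF7 (clone C63D9). The other library, also 1, was input DNA, sonicated without antibody. Both came from a laboratory-made T-ALL line of the genotype Lck-Akt2;Dlx5 transgenic, grown in IMDM with 20% FBS and fixed with 1% formaldehyde, so that both libraries share the transgenes. The Lck promoter drives both transgenes in the T lineage, and the labels call the cells double positive, a term the study uses for lymphomas of this genotype that carry both CD4 and CD8. A single line stands for the genotype here, with no replicate, no cells without the transgenes and no treatment. A peak list cannot show whether the cells express the markers of their labelled type, and the study's RNA-seq was not used here.

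Histone deacetylases remove acetyl groups from histone tails and act mostly in repressor complexes, among them those that Groucho/TLE proteins recruit to TCF factors when β-catenin is absent. Polycomb repressive complex 2 methylates lysine 27 of histone H3, which Kdm6b removes again. Kmt2a (MLL1) methylates lysine 4 of the same histone, Dnmt1 copies DNA methylation after replication, and the cohesin ring of Smc1a and Smc3 holds sister chromatids together and shapes chromatin loops. TCF7 is needed for early T-cell development, and several of these regulators, the MLL and Polycomb genes in particular, are mutated or rearranged in human T-cell leukemia.

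The sequences around 6 summits are printed because they hold the main contrasts: the 3 highest peaks (Eed, Smc3, Hdac2), the lowest and richest in G and C (Kmt2a), the peak farthest from a TSS (Hdac7) and the one with the fewest CpG dinucleotides for its base content (Ezh1). Each run covers 100 bp on either side of the summit, 5′ to 3′ in the direction of the gene, from the RefSeq GRCm38 reference, and 201 bases in all. Capitals mark a match to a motif searched. These were TGACGTCA, the cyclic AMP response element (CRE), in Hdac7, and in Kmt2a GGGCGG, the box of the SP1/KLF family, and CCGGAA, the ETS box, read there on the opposite strand. The TCF/LEF motif, CTTTG followed by a pair of letters that are each A or T, was searched on both strands too, and none of the 6 runs holds it.

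Eed (chr7:89981007-89981207, - strand): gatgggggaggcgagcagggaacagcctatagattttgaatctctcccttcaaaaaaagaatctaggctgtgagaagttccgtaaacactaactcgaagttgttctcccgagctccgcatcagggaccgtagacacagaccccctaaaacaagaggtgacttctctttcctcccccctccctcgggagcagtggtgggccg

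Smc3 (chr19:53600151-53600351, + strand): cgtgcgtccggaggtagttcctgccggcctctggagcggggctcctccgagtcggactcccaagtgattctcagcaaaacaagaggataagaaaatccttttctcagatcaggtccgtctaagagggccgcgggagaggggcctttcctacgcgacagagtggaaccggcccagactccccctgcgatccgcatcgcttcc

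Hdac2 (chr10:36974299-36974499, + strand): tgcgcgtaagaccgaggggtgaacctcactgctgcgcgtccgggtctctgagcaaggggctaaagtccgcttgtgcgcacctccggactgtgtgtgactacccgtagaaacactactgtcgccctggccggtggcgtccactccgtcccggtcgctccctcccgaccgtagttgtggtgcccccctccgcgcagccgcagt

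Kmt2a (chr9:44881354-44881554, - strand): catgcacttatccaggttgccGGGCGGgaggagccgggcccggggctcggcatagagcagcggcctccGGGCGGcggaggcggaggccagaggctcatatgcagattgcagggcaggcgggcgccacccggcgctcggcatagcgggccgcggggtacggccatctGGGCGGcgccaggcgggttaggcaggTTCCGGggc

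Hdac7 (chr15:97849592-97849792, - strand): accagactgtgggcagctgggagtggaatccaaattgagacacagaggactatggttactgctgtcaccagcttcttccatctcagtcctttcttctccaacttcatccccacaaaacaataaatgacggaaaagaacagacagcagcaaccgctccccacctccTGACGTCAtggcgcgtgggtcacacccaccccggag

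Ezh1 (chr11:101195134-101195334, - strand): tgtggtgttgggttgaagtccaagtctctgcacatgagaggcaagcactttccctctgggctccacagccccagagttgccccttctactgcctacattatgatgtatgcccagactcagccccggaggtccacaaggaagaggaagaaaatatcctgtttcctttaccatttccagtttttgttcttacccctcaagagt

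The 10 peaks differed more in ChIP signal than in local background. The pileup that MACS2 gives at each summit is the number of overlapping ChIP fragments, scaled down to the size of the input library. All 779 pileups of the list were whole multiples of 0.522, to within 0.00515, and dividing by this step gave the number of ChIP fragments. Fragments at the summit of the 10 genes ran from 68 at Kmt2a to 492 at Eed, a 7.24-fold span. The local background implied by the fold enrichment, expressed in ChIP fragments, ran from 6.70 at Kmt2a to 17.4 at Hdac7, a 2.59-fold span. On the scale of the input library these backgrounds were only 3.50 at Kmt2a and 9.06 at Hdac7. No interval is given for the backgrounds, or for the fold enrichments and ranks that rest on them. Numbers of fragments are followed by their exact 95% Poisson interval. Like every interval here it covers counting error alone, since no other culture was measured. In a bulk library, occupancy in more cells and more frequent occupancy in each cell cannot be told apart. The number of DNA copies at each gene was not measured here, and numbers of fragments were not corrected for it.

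**Figure D1:**
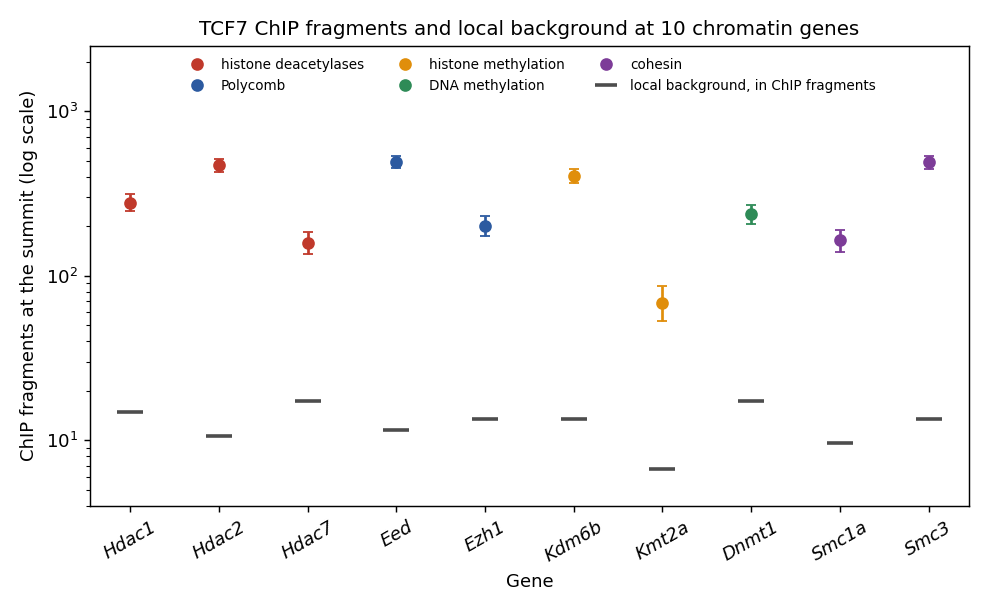
ChIP fragments at the summit (log axis) for each of the 10 genes, with exact 95% Poisson intervals as bars and colors for the roles; short horizontal lines give the local background in ChIP fragments. Eed, Smc3 and Hdac2 sit between 472 and 492 and Kmt2a at 68, while the background stays between 6.70 and 17.4.

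Of the deacetylase genes, Hdac2 had the strongest peak. Hdac1 and Hdac2 encode the close paralogs that form the catalytic core of the NuRD, Sin3 and CoREST complexes. The Hdac2 peak (ENSMUSG00000019777, plus strand, chr10:36974116-36974679) had 472 fragments at its summit (430 to 517) over a background of 10.7, a fold enrichment of 37.7, rank 18 of 779. The Hdac1 peak (ENSMUSG00000028800, minus strand, chr4:129542770-129543277) had 279 fragments (247 to 314) over a background of 14.9, a fold enrichment of 16.7, rank 219. Hdac2 thus had 1.69 times the fragments of Hdac1 (1.46 to 1.97, exact binomial interval) on a background 0.714 times as high. The ratio of their fold enrichments, to which MACS2 adds a pseudocount of 1 above and below, was 2.26. Both summits were upstream of the TSS, by 145 bp at Hdac2 and 217 bp at Hdac1, and the Hdac2 peak covered its TSS while the Hdac1 peak ended before it. Repeats, as masked in the reference, made up 26.8% of the Hdac1 peak, the largest share among the 10, and 4.79% of the Hdac2 peak.

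Hdac7, a class IIa deacetylase of thymocytes that shuttles between nucleus and cytoplasm, differed from its paralogs in position. Its peak (ENSMUSG00000022475, minus strand, chr15:97849586-97849836) was intergenic, with the summit 5190 bp upstream of the nearest annotated TSS, that of Hdac7-203, and 17925 bp upstream of the TSS of the principal transcript, Hdac7-202. It was the only one of the 10 summits farther than 1000 bp from a TSS of its gene. The peak was 251 bp long and had 159 fragments (135 to 186) over the highest background of the 10, 17.4, a fold enrichment of 8.35, rank 418. The Hdac1 peak had 1.75 times as many fragments (1.44 to 2.15). The CRE in the printed run is a palindrome, so that it matches on both strands. A CRE was found within 100 bp of 7 of the 779 summits (0.899%), and a match is a description of letters, not of a bound site.

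The Polycomb genes had a strong promoter peak and a peak of middle height within a gene. Eed encodes the subunit of Polycomb repressive complex 2 that reads trimethylated lysine 27, and Ezh1 an alternative catalytic subunit of the same complex. The Eed peak (ENSMUSG00000030619, minus strand, chr7:89980844-89981480) had 492 fragments (449 to 537) over a background of 11.5, a fold enrichment of 36.8, rank 22 by fold enrichment and 34 by fragments. It covered the Eed TSS, with the summit 124 bp upstream. The noncoding gene E230029C05Rik starts on the opposite strand 228 bp from the Eed TSS, and its TSS was 352 bp from the summit, so that the signal cannot be assigned to either gene alone. The Ezh1 peak (ENSMUSG00000006920, minus strand, chr11:101194994-101195388) had 201 fragments (174 to 231) over 13.4, a fold enrichment of 13.2, rank 263. Eed had 2.45 times the fragments of Ezh1 (2.07 to 2.90).

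The position of the Ezh1 peak depended on which transcripts are counted. Its summit was 812 bp upstream of Ezh1-205, a processed transcript without a coding sequence that starts inside the gene. The nearest TSS of a coding Ezh1 transcript was 31192 bp away, and the summit lay in intron 16 of the 21 exons of the principal transcript, 31216 bp downstream of its TSS. The authors' table gives Ccr10 as its nearest gene, at a distance of 19551 bp. The run printed for Ezh1 holds 1 CpG.

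**Figure D2:**
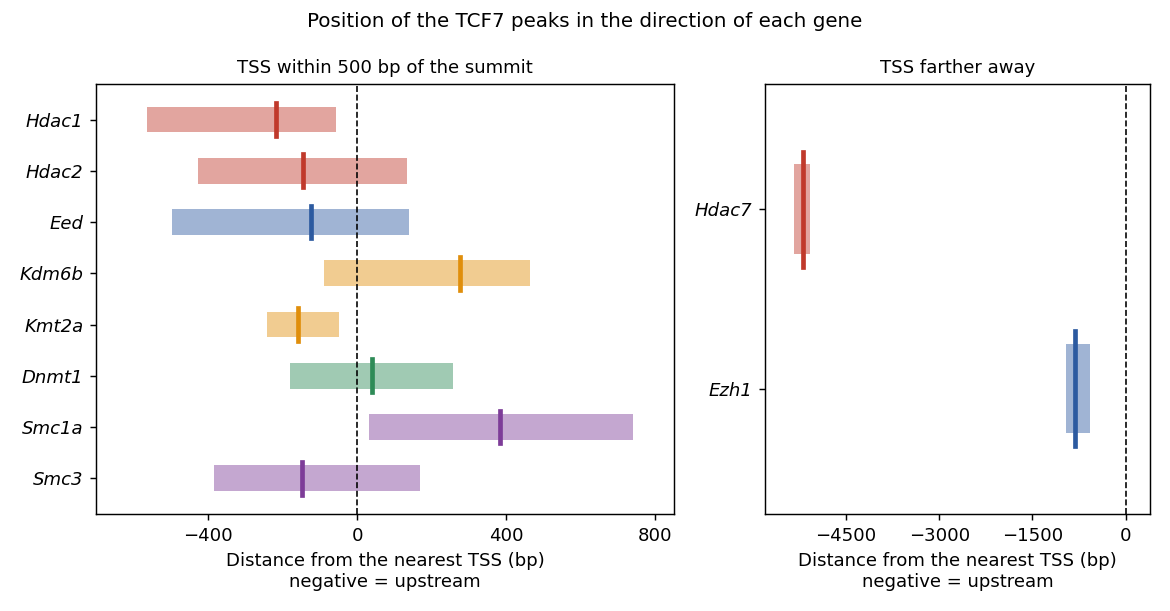
Extent of each peak (bars) and its summit (thick ticks) relative to the nearest annotated TSS of the gene (dashed line), in bp and in the direction of transcription, with negative values upstream; the right panel has a wider scale for Hdac7 and Ezh1. Summits lay upstream of the TSS at 7 genes and downstream at 3, Kdm6b, Dnmt1 and Smc1a.

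Among the genes of histone methylation, Kdm6b and Kmt2a stood far apart. Kdm6b (JMJD3) encodes a demethylase of lysine 27, and its peak (ENSMUSG00000018476, minus strand, chr11:69413212-69413763) had 405 fragments (367 to 446) over 13.4, a fold enrichment of 26.6, rank 120. The summit was in intron 1, 277 bp downstream of the TSS, which the peak covered. Kmt2a had the lowest and shortest peak of the 10 (ENSMUSG00000002028, minus strand, chr9:44881344-44881538), with 68 fragments (52.8 to 86.2) over the lowest background, 6.70, a fold enrichment of 8.11, rank 430 by fold enrichment and 580 by fragments. Its summit was 158 bp upstream of the TSS, which the 195-bp peak did not reach. Kdm6b had 5.96 times the fragments of Kmt2a (4.60 to 7.82), but its background was also higher, and the ratio of the fold enrichments was 3.27. The antisense gene AC061963.1 starts 274 bp from the Kmt2a summit and 432 bp from the Kmt2a TSS. The peaks directly above and below Kmt2a by fold enrichment were assigned to Exd2 (8.12-fold) and Gm15996 (8.10-fold), and those around Hdac2, the strongest by this measure, to Galnt10 (38.1-fold) and Uchl3 (37.4-fold).

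The Dnmt1 peak lay at the start of the principal transcript and not at the outermost start of the gene. The peak (ENSMUSG00000004099, minus strand, chr9:20952721-20953159) had 236 fragments (207 to 268) over 17.2, a fold enrichment of 12.4, rank 282. Its summit was 39 bp downstream of the TSS of Dnmt1-201, the closest of the 10, in an untranslated region, and 6948 bp downstream of the outermost annotated TSS. The table of nearest genes accordingly places it inside the gene.

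Of the cohesin genes, Smc3 had the higher peak and Smc1a the longer. Smc1a and Smc3 encode the pair of ATPase arms of the ring. The Smc3 peak (ENSMUSG00000024974, plus strand, chr19:53600014-53600566) had 490 fragments (448 to 535) over 13.4, a fold enrichment of 32.1, rank 60, with the summit 147 bp upstream of the TSS that it covered. AC137853.1, a noncoding gene on the opposite strand, starts 840 bp from this summit. The Smc1a peak (ENSMUSG00000041133, plus strand, chrX:152016461-152017168) was the longest of the 10 at 708 bp, rank 25 by length, but had 164 fragments (140 to 191) over 9.58, a fold enrichment of 14.4, rank 244 by fold enrichment and 287 by fragments. Smc3 had 2.99 times the fragments of Smc1a (2.50 to 3.59), on a background 1.40 times as high. The ratio of their fold enrichments was 2.22. The Smc1a summit was in intron 1, 384 bp downstream of the TSS. Ribc1, a coding gene on the opposite strand, starts 133 bp from the Smc1a TSS and 517 bp from the summit. It was the only other protein-coding gene with a TSS within 1000 bp of any of the 10 summits.

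By fragments, the 10 genes fell in the order Eed, Smc3, Hdac2, Kdm6b, Hdac1, Dnmt1, Ezh1, Smc1a, Hdac7 and Kmt2a. Of the 45 pairs, the intervals overlapped in 9 and did not in 36. Over all 779 peaks, fragments ran from 28 to 631, with quartiles of 68 and 274.5. The same share was not computed for pairs of all peaks, so the 36 cannot be called a trait of these genes. The intervals of neighbors in the order of the 10 genes overlapped, except between Kdm6b (405) and Hdac1 (279) and between Hdac7 (159) and Kmt2a (68). Eed and Smc3 differed by a ratio of 1.00 (0.884 to 1.14), and Eed and Hdac2 by 1.04 (0.917 to 1.19), so that the order of these 3 is within counting error. A fold enrichment of 20 or more was reached by 4 of the 10, Hdac2, Eed, Smc3 and Kdm6b, beside 22.1% of all peaks. Among the 475 peaks with a summit within 1000 bp of a TSS, 34.5% reached it, and among the 304 others 2.63%. The median rank of the 10 was 231.5 of 779, and 8 were above the median fold enrichment of the list, 8.93, the others being Hdac7 and Kmt2a.

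**Figure D3:**
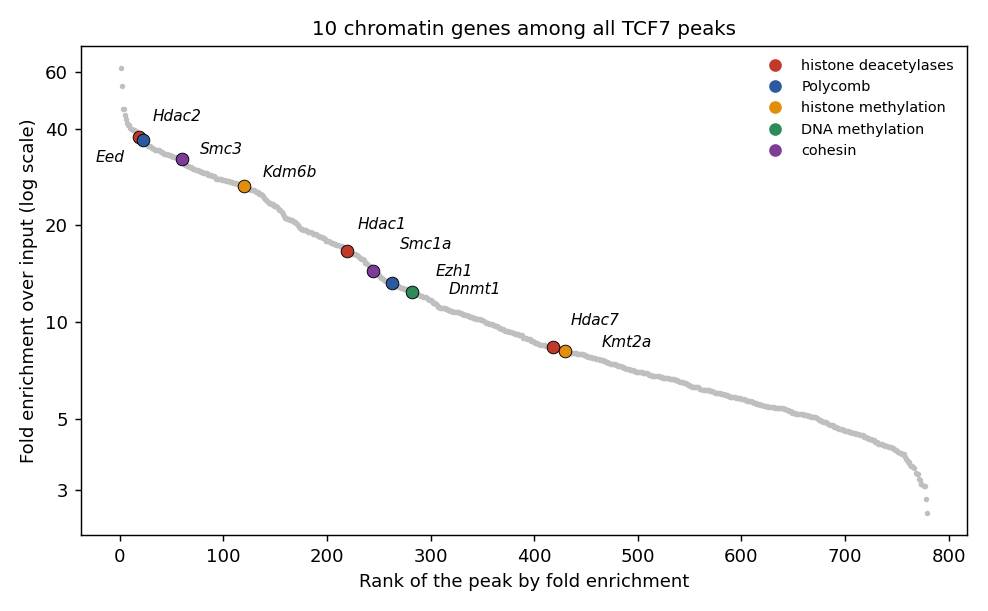
Fold enrichment over input (log axis) of all 779 peaks in order of rank (gray), with the 10 genes marked by role. The genes spread from rank 18 (Hdac2, 37.7-fold) to rank 430 (Kmt2a, 8.11-fold), with 8 of 10 above the median of 8.93.

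In position, the 10 peaks were mostly promoter peaks, as were most peaks of the list. The summit was within 1000 bp of a TSS of the gene itself for 9 of the 10, beside 69.5% of the 600 peaks assigned to protein-coding genes. Ezh1 was taken for this distance, so that it counts by choice, and of the 9 genes taken by the table's assignment, as those 600 peaks were, the number was 8. In all, 61.0% of the 779 summits in the list had the TSS of some protein-coding gene within 1000 bp. With Ezh1-205 and other noncoding transcripts left out, the count of 9 genes became 8. The shares of all peaks count every transcript of a protein-coding gene and are not given for coding transcripts alone. The median fold enrichment of the 10 was 15.6, against 12.7 for the 475 promoter peaks of the list and 6.77 for the 304 others, and 7 of the 10 exceeded the promoter median. The peaks were also long, with a median of 530 bp against 376 bp for promoter peaks, and 8 of the 10 exceeded this. No test was made of these differences, because the genes were chosen with the peak values known.

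Base composition at the summits was that of promoter peaks, with a range from Ezh1 to Kmt2a. GC content within 100 bp of the summit had a median of 59.0% over the 10, 58.7% over promoter peaks and 49.3% over the others. The observed number of CpG over that expected from base content (CpG o/e) had medians of 0.709, 0.710 and 0.209. Kmt2a had the highest GC content, 74.6%, rank 34 of the list, with a CpG o/e of 0.856, and yet the lowest fragment count of the 10. Hdac2 had the highest CpG o/e, 0.961, at 66.2% GC. Smc3 (60.7%, CpG o/e 0.865), Hdac1 (64.7%, 0.866), Dnmt1 (66.2%, 0.731) and Smc1a (57.2%, 0.688) also stood above the median CpG o/e of all peaks, 0.513. Eed was just above it at 0.563 with 53.2% GC, below the promoter median although it had the most fragments. Hdac7 (53.2%, 0.438), Kdm6b (50.7%, 0.261) and Ezh1 (49.8%, 0.0816) were below it. At a distance of 2000 bp, in windows as wide, the medians of the 10 were 48.8% GC and a CpG o/e of 0.108. GC content was above that of its own distant window at 8 summits, the exceptions being Kdm6b (61.7% away) and Ezh1 (56.2% away), and CpG o/e at 9, the exception being Ezh1 (0.441 away).

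**Figure D4:**
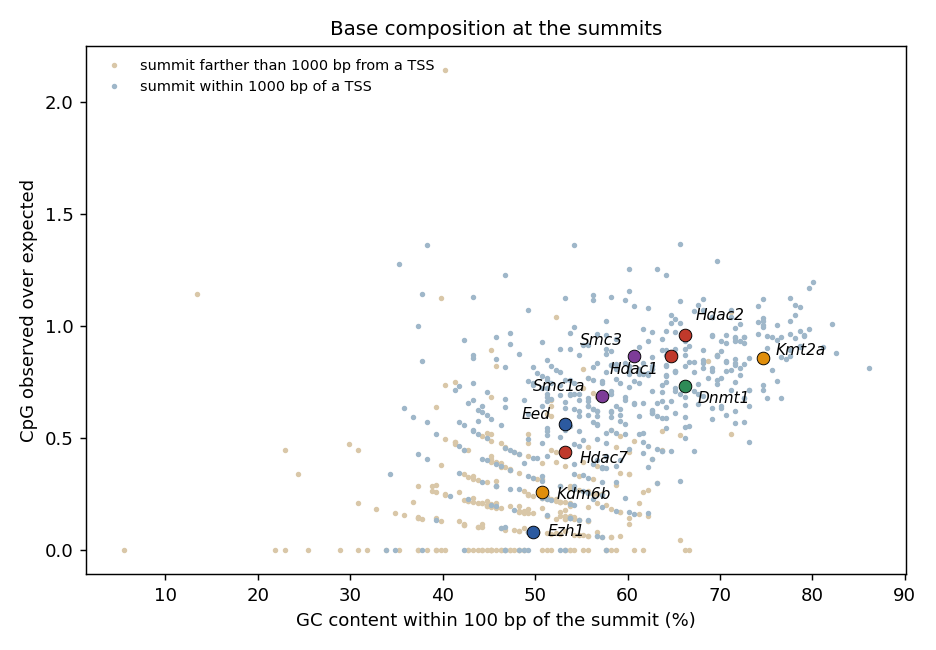
GC content within 100 bp of the summit (%) against CpG observed over expected for all peaks of the list, with the 10 genes in the colors of their roles. Blue marks summits within 1000 bp of any TSS of a protein-coding gene, noncoding transcripts of that gene included, and tan the others. Among the 10 genes, Kmt2a is farthest to the right at 74.6% GC, and Kdm6b and Ezh1 lie lowest, at 0.261 and 0.0816.

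A TCF/LEF motif was not found within 100 bp of any of the 10 summits. With 10 windows, a count of 0 allows a share of up to 30%, and the share was 15.7% over all peaks, 9.89% over promoter peaks and 18.4% in windows 2000 bp from all peaks, so that 0 of 10 is not a difference detectable at this number. Of the distant windows of the 10 genes, 1 held the motif, that of Eed. Over all peaks the motif was no more frequent at the summits than in the distant windows, and the cause was not tested. Among the 304 peaks that were not promoter peaks, its share was 24.7%. The absence of these letters from a window does not show that the factor is absent. Of the other motifs searched, an SP1/KLF box was found at Kmt2a (3 matches), Dnmt1 and Smc1a, 3 of 10, beside 24.1% of all peaks and 33.1% of promoter peaks. The ETS box was found at Kmt2a alone, beside 9.63% of all peaks. Dnmt1 had a match to the palindromic motif of NRF1, a factor of CpG-rich promoters, the only one within 100 bp of the 779 summits (0.128%), and a pair of CCAAT boxes, the NFY motif, which 18.1% of all peaks held. Neither the E-box CACGTG (3.34% of all peaks) nor the RUNX motif TGTGGTT (6.03%) was found near the 10 summits.

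Promoter sequences in RefSeq, from 250 bases before to 50 after a TSS on GRCm38.p6, were given for 8 of the 10 genes, all but Hdac1 and Kdm6b, in 13 entries. The summit was inside an entry of the gene for Hdac2, Eed, Kmt2a, Dnmt1 and Smc3. A TCF/LEF motif was in 1 of the 13 entries, an upstream Dnmt1 promoter (chr9:20959839-20960138) that the Dnmt1 peak did not reach. Over the first entry of each of 27025 genes, 16.9% held the motif. No peak of the 10 contained a run of 4 or more CAG units within 100 bp of its summit, which 8.73% of all peaks did.

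The other genes of these families mostly had no peak. In 6 lists of 198 genes, 15 were the nearest gene of a peak (7.58%, Wilson interval 4.64 to 12.1%), beside 2.64% of 21938 protein-coding genes, and 14 had a TSS within 1000 bp of a summit (7.07%), beside 2.52%. These shares include the 10 genes, which were chosen for their peaks, and nothing can be read from the excess. Among the other 188 listed genes, 6 were nearest to a peak (3.19%) and 5 had a TSS within 1000 bp of a summit (2.66%), shares close to those of all protein-coding genes, although leaving the chosen genes out lowers them. The nearest summit was over 100 kb from a TSS for 149 of the 188 and within 100 kb for 37, and the others, Kdm5d and Uty, are on chromosome Y, where the list has no peak. The list holds only regions past the threshold of the peak caller, and absence from it does not show that TCF7 is absent from a gene.

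By family, deacetylases and sirtuins had 3 nearest genes of 18, all described above. The subunits of deacetylase complexes had 2 of 34. These were Chd3, a NuRD helicase gene with a 4.64-fold peak 547 bp upstream of a TSS and a 5.20-fold peak 638 bp downstream of one, and Tbl1xr1, a subunit gene of the NCoR complex, whose 8.49-fold peak was 406 kb upstream of its TSS. Among 38 Polycomb genes, Rnf2, the ubiquitin ligase of Polycomb repressive complex 1, was added to Eed, with a 4.27-fold peak within the gene, 11.8 kb downstream of its TSS. Of 54 methyltransferase and demethylase genes, 5 were nearest to a peak. Besides Kdm6b and Kmt2a these were Setd1a, a lysine 4 methyltransferase with a 4.63- and a 15.6-fold peak each within 80 bp of a TSS, Dot1l, the lysine 79 methyltransferase, with 276 fragments (244 to 311) but an 8.53-fold enrichment 83 bp from the TSS, and Smyd3 (5.44-fold, 161 bp). Ash1l, a lysine 36 methyltransferase, had a TSS 529 bp from the summit of a 28.6-fold peak with 375 fragments (338 to 415), which the table assigns to its neighbor Dap3. DNA methylation genes had 1 of 18, and cohesin and other SMC complex genes 2 of 36. Of 8 paralogs and partners without a peak that were looked up by name, 7 had their nearest summit over 100 kb away, at 532 kb for Suz12, 5999 kb for Ezh2, 1544 kb for Kdm6a, 664 kb for Kmt2b, 327 kb for Dnmt3a, 935 kb for Dnmt3b and 5920 kb for Rad21. Hdac3 was nearer, 8.40 kb from the summit of a peak assigned to Diaph1. Other listed genes without an assigned peak also had a summit at middle distance, such as Hdac6 at 35.4 kb, Kmt2e at 47.3 kb and Uhrf1 at 84.3 kb. A further 3 listed genes, like these named after their values were seen, held within the gene a peak that the table assigns elsewhere and that was over 1000 bp from their TSS. These were Jarid2, a cofactor of Polycomb repressive complex 2 (10.5-fold, 66 fragments, 51.0 to 84.0, 62.7 kb from a TSS), Smyd1, a methyltransferase of muscle (12.8-fold, 170 fragments, 145 to 198, 8.55 kb), and Nsmce2, a subunit of the SMC5/6 complex (4.67-fold, 101 fragments, 82.3 to 123, 150.5 kb).

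**Figure D5:**
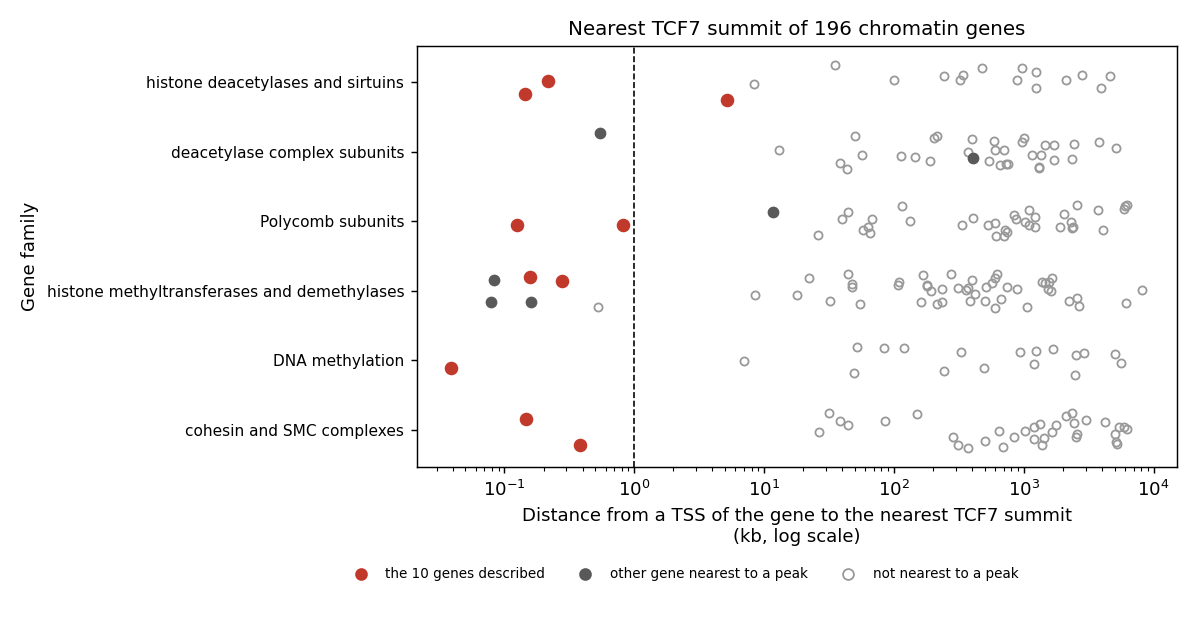
Distance (kb, log axis) from the nearest annotated TSS of 196 of the 198 chromatin genes to the nearest TCF7 summit, by family (the other 2 are on chromosome Y, without a peak); red points are the 10 genes described, filled gray points other genes nearest to a peak, and open points genes that the authors' table assigns no peak. The dashed line marks 1 kb, and the open point left of it is Ash1l at 0.529 kb.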

How the data were processed

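The data were 2 tables deposited for 1 TCF7 ChIP library over 1 input library, a MACS2 peak list and a table that pairs peaks with their nearest genes. Per the methods and the submitters' notes, the authors used Bowtie2 for alignment to mm10 and MACS2, within Chipster, for peak calling. What was merged to make the list, the versions and the settings were not given in the sources used here. Pileup is a deposited coverage signal that the authors scaled to the input library, the fold enrichment is the authors' ratio of pileup to local input background, and the p-value and q-value were deposited as −log10. Peak lengths and gene distances were also deposited, in bp. The headers of the nearest-gene table are out of step with its columns, which were read by content. No sample column was left unused.

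Pileups were divided by their common step (0.522, or 1.92 ChIP fragments for each input fragment). The background was the pileup plus 1 divided by the fold enrichment, minus 1; with this pseudocount the Poisson p recomputed from both was within 2% of the deposited −log10 in 755 of 755 peaks where it could be computed. TSS came from GENCODE vM21 (GRCm38), in which 14 gene identifiers of the authors' table had no match, and sequence from the RefSeq GRCm38 assembly. The principal transcript is the one the annotation marks as such. Both strands were searched for motifs, in windows of 100 bp on either side of the summit and in equal windows 2000 bp away.

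The 10 genes, the family lists and the motifs were chosen with earlier results of these data known. The text names these genes, listed genes with a peak or a summit within 1000 bp of a TSS, protein-coding genes that share a promoter, the neighbors in rank of the strongest and weakest, and paralogs without a peak; the noncoding neighbors and single motif matches were named after their values were seen. With 1 library a group and no replicates, no test was made, and precision depends on the number of fragments. Scripts were tested on simulated data and used Python 3.11.15, matplotlib 3.10.9, pysam 0.24.0, pandas 2.3.3, scipy 1.17.1 and numpy 2.4.6. Alternatives were stricter peak thresholds, other distances, windows, transcripts and gene assignments, ranks by other columns, a stricter TCF motif and no pseudocount.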

Additional observations from a re-analysis of the deposited data

How the results depend on the processing

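Values for the 10 genes moved under these settings, and the cause was not tested. The number of genes with a TCF/LEF motif, 0 within 100 bp of the summit, was 1 (Hdac1) anywhere in the called peak. The share of all called peaks with the motif anywhere is not given here, and the 10 peaks were longer (median 530 bp) than all peaks (276 bp). For the letters CTTTG alone, an alternative chosen after seeing the data, the number was 2 (Hdac1, Kdm6b). CTTTG was near 40.1% of all summits and 35.8% of promoter summits. In windows 2000 bp away it was at 5 of the 10 genes and at 47.8% of all peaks. Windows 2000 bp away had a median GC content of 48.8% and a median CpG o/e of 0.108 in place of 59.0% and 0.709. Listed family genes nearest to a peak fell from 15 to 8 when the peak had to be at least 10-fold enriched. Those left were, except for Setd1a (15.6-fold), among the 10 genes chosen for their peaks. The share of all protein-coding genes at this cut is not given here, so nothing can be read from the count. The other settings kept each count or median within 1.5 times its value, or, for GC content, within the binomial interval. The promoter count was 8 or 9 of 10 under every distance tried. The genes with a peak were 8 to 10 under every threshold, but having a peak is how they were chosen. The share of all peaks past the same thresholds is not given here, so this count is no result about the genes. No paired analysis was possible because each group had 1 library. With 1 library, no spread between cultures was measured, and intervals cover counting error only.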

Other observations

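A few short words were chosen after seeing the data because they were frequent at the summits of all peaks, and are given as values only. The word CTCCCCC, or its reverse complement, was within 100 bp of the summit at 5 of the 10 genes (Hdac1, Eed, Kdm6b, Dnmt1 and Smc3), beside 19.6% of all 779 peaks and 22.1% of the 475 promoter peaks. In windows 2000 bp away it was at 1 of the 10 genes (Kdm6b) and at 5.39% of all peaks. The word CGTACCA was at Hdac1 alone among the 10 and at 31 of all 779 peaks (3.98%), while 0 of the 779 windows 2000 bp away held it. The word CAGCAGC was at Hdac7 alone, beside 16.0% of all peaks. These words were picked on the same summits they are counted in. The counts, and their contrast with the distant windows, are therefore not independent of the choice, and no difference was tested.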
